A study of Mus musculus with 12 samples.

Results

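Claudins and tight junction genes formed a group of 9 genes among the 51467 genes in the count table: the claudins Cldn3, Cldn4, Cldn5, Cldn6, Cldn7, Cldn9 and Cldn12, the MARVEL protein gene Ocln and the scaffold gene Tjp1. The genes were chosen by symbol, from the GENCODE mouse annotation of the gene identifiers, and Cldn7 was chosen by a measured value as well, a fall of its total-to-nascent ratio that rested on few reads. The values of Cldn7 are therefore given as a description, with no test. Of the 9 genes, 8 passed the filter on low counts (at least 3 CPM, counts scaled to a common library size, in at least 3 libraries), which left 7 genes to test beside Cldn7. Cldn5 did not pass the filter, and Cldn9 passed it through its EpiLC libraries, so that its difference between cell types was in part required by the filter.

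The study followed mouse embryonic stem cells (ESCs) into epiblast-like cells (EpiLCs) and asked how much of each change in mRNA was already present in newly made RNA. ESCs were held in the naive state with serum, the cytokine LIF and the 2i inhibitors PD0325901 (against MEK) and CHIR99021 (against GSK3). For EpiLCs, cells were plated, LIF and 2i were removed 24 hours later, and cells were collected about 56 hours after that. Both cell types received 4-thiouridine (4sU) at 500 µM for 30 min, after which labelled RNA was pulled down as the nascent fraction (4sU libraries) and ribosomal RNA was removed from unselected RNA (total libraries). There were 4 groups of 3 libraries, 12 in all. No genotype is given in the labels, and the study's methods name, for differentiation, a V6.5 line that carries fluorescent reporters of the miR-290 and miR-302 clusters.

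Claudins are membrane proteins that pair across the gap between neighbouring epithelial cells and set which ions and solutes can pass. Occludin and the other MARVEL proteins line the same strands, and the ZO scaffold proteins, of which Tjp1 encodes ZO-1, tie the strands to actin. During implantation the epiblast turns from a ball of cells into a polarised epithelium around a lumen. Tight junctions and apical polarity proteins are features of such an epithelium.

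Total libraries held 9300845 to 21975684 reads and 4sU libraries 3097693 to 5385644, so nascent values carried the larger counting error. All 8 naive marker genes listed were lower and all 6 primed marker genes were higher in EpiLC total RNA, and the naive sum went from 2846 to 3036 CPM in ESC total libraries to 52.1 to 58.9 in EpiLC total libraries. The 7 trophectoderm markers summed to 73.8 to 82.6 CPM in ESC and 251 to 301 CPM in EpiLC total libraries. Tfap2c held the most of this sum in ESCs (40.1 CPM) and the epithelial keratin Krt18 in EpiLCs (186 CPM). Krt7, Krt8 and Krt18 were called higher in total RNA (2.15, 2.32 and 3.42) and Tfap2c lower (-3.35 ± 0.15), Gata3 was at 13 ± 10.1 and 14.6 ± 1.13 CPM in ESC and EpiLC nascent RNA, and Cdx2 and Elf5 had at most 11 and 2 reads in a total library. The 8 fibroblast markers summed to 3.88 to 4.73 and 14.6 to 18.9 CPM, with no Dcn read in an ESC total library and at most 56 in an EpiLC one. Col1a2 went from a mean of 0.157 to 4.26 CPM in total RNA. Lum and Postn had at most 1 read in a library, and S100a4 had 0. The 6 primitive endoderm markers summed to 4.98 to 10.5 and 8.15 to 9.04 CPM, groups that overlapped, but single genes differed in direction. In total RNA Gata4 went from a mean of 2.87 to 5.48 CPM, with libraries that overlapped, and Sox17 from 1.63 to 0.0663 CPM. The part of other cell types in the results was not tested. In bulk RNA, more cells with a transcript and more transcript per cell cannot be told apart. Leaving out both ESC replicate 3 libraries took the interaction calls over all genes from 182 higher and 45 lower to 680 and 99, so values without them are given where they changed an adjusted p or a call. The study calls its replicates biological, but neither the labels nor the methods say what was separate between the 3 libraries of a group, so p-values measure the spread between these libraries.

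Several of the genes lie beside each other. Cldn4 (chr5:134945119-134946934, minus strand) and Cldn3 (chr5:134986214-134987472, plus strand) point away from each other across 39279 bases that held no other gene of the table. Cldn6 (chr17:23679365-23682446, plus strand) and Cldn9 (chr17:23682584-23684018, minus strand) run towards each other with 137 bases between their ends. Cldn7 is at chr11:69964779-69967885 on the plus strand, and its neighbour Elp5, on the minus strand, runs towards it and ends 338 bases away. Ocln (chr13:100496507-100552718) lies 43238 bases from the tricellular junction gene Marveld2, both on the minus strand. Cldn12 is at chr5:5505015-5514873, Cldn5 at chr16:18776847-18778260 and Tjp1 at chr7:65296165-65371239 (all mm10). Reads were counted by strand, so the 2 converging genes were separable.

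The stretches before the annotated starts of Cldn6 and Cldn7, whose RNA differed most between the cell types, and of the neighbours Cldn3 and Cldn4, of which one rose and the other did not pass the fold threshold, are shown from the RefSeq start-site table (build GRCm38.p6), 5′ to 3′ on the gene's strand and without bases annotated as exon. Capitals mark an E-box, CACCTG or CAGGTG, the letters that Zeb and Snail repressors are known to bind.
Cldn6 (chr17:23679115-23679248, plus strand): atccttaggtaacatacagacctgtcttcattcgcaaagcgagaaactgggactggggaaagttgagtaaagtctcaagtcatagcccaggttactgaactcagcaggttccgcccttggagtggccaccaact
Cldn7 (chr11:69964529-69964778, plus strand): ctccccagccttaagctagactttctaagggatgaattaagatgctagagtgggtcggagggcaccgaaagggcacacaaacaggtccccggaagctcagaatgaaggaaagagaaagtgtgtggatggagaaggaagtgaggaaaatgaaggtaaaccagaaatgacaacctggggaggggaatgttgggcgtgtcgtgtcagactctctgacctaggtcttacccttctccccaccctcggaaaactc
Cldn3 (chr5:134985964-134986213, plus strand): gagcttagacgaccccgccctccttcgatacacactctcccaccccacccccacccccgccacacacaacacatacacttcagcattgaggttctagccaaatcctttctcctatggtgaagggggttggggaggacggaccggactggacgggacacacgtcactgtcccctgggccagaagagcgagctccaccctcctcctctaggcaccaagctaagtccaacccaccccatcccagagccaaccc
Cldn4 (chr5:134946935-134947184, minus strand): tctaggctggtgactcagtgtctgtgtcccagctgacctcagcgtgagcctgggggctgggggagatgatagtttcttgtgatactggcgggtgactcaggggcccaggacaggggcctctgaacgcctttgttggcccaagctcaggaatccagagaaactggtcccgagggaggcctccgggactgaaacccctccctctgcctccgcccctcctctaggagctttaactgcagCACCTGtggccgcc

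Searched on both strands in the 250 bases before each start, the E-box letters occurred in 17.22% of 32851 windows of the table. Cldn4 held one at position -14 from its start, Cldn6 one at -93, the downstream one of the listed starts of Cldn7 at -97 and -57, and the downstream one of those of Ocln at -213 and -68. The Cldn6 match lies in bases annotated as exon and is not in the stretch shown. No E-box letters were in the windows of Cldn3, Cldn5, Cldn12, Tjp1 or the upstream starts of Cldn7 and Ocln. The Grainyhead letters AACCNGTT or AACNGGTT, where N is any base, occurred in 1.79% of windows, and among the members in that of Cldn5, at -20. The windows shown held 51.2% G and C with 6 CpG in Cldn7, 53.6% with 9 in Cldn6, 60.8% with 9 in Cldn3 and 62% with 7 in Cldn4, over all 250 bases, and that of Tjp1 held 63.2% with 22, against medians of 52.4% and 6 over all windows. A match is a description of letters and not a bound site, and Cldn9 had no entry in the table.

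The study dealt with a microRNA family of ESCs that shares a seed, so the members' 3′ UTRs were searched for its complement. A pair of its RNAs is shown (RefSeq, GRCm38.p6), one from a chromosome 7 cluster and one from a chromosome 3 cluster, with the seed, bases 2 to 8, in capitals.
mmu-miR-294-3p: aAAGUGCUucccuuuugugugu
mmu-miR-302d-3p: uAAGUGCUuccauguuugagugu

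The complementary 7 letters AGCACTT were in the 3′ UTR of 2008 of the 12155 kept genes with an annotated coding transcript (16.52%, 1 GENCODE M21 transcript a gene, APPRIS principal where marked) and in 0 of the 9 members, whose 3′ UTRs ran from 168 bases in Cldn7 to 2676 in Cldn12. This says only that these letters are not in the annotated UTRs.

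Cldn6 and Cldn3 were higher in EpiLCs in both fractions, by 12.2-fold and 3.84-fold in total RNA, and Cldn7 was higher by a similar factor to Cldn6 in total RNA and by a larger one in nascent RNA. Ocln rose 2.40-fold and Cldn9 2.74-fold. Cldn12, Tjp1 and Cldn4 had smaller differences that did not pass the fold threshold, and Cldn5 had few reads in either cell type. A gene was called when its limma-voom Benjamini-Hochberg adjusted p over all 14731 genes kept was under 0.05 and its absolute log2 fold change was over 1. Of the 7 genes tested, 4 were called higher and 0 lower in total RNA, beside 16.3% of all genes called higher and 11.2% lower. In nascent RNA 4 were higher and 0 lower, beside 11.9% and 13.5%. Cldn9 is one of the 4 in both fractions and was partly bound to differ. Leaving out genes that passed the filter through the libraries of 1 cell type alone, a restriction made after the values were seen, 3 of 6 members were higher in total RNA and 3 in nascent RNA, beside 11.4% and 7.27% of 12538 genes. At an adjusted p under 0.05 with no fold threshold, 7 of the 7 were higher in total RNA and 5 in nascent RNA, beside 31.4% and 23.7% of all genes. The adjusted p of Cldn4 in total RNA was close to 0.05, and above it with edgeR and DESeq2, as given below. The median log2 change of all genes was 0.02 in total and -0.09 in nascent RNA.

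**Figure D1:**
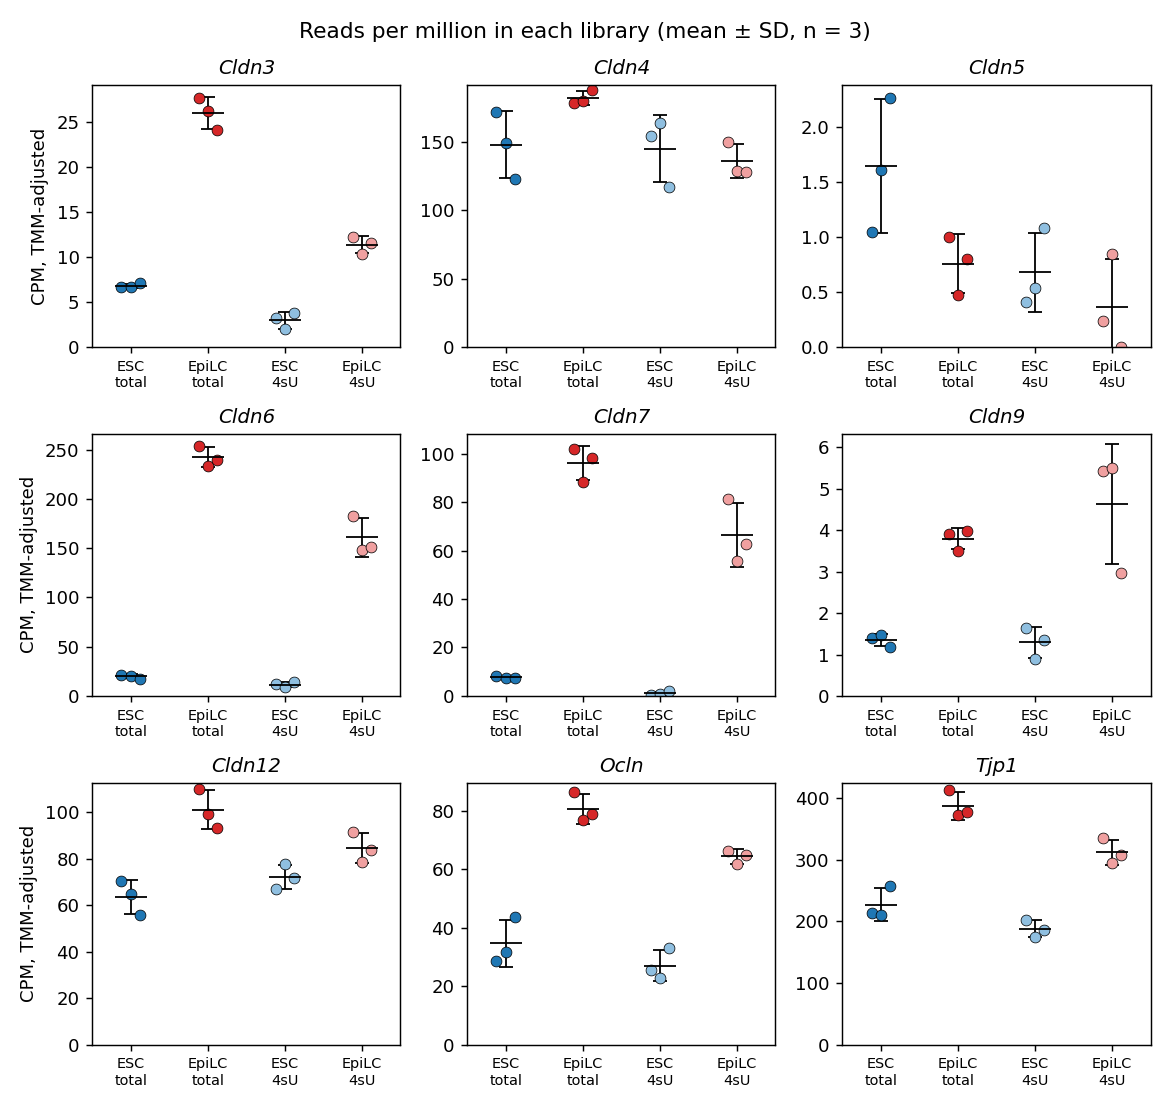
CPM with TMM scaling, which aligns libraries on genes of middling change (y axis, from 0, a different scale for each gene) of the 9 genes in the 12 libraries, grouped on the x axis by cell type and fraction. Points are libraries, and horizontal bars with whiskers are means ± SD of 3. Cldn3, Cldn6, Cldn7, Cldn9 and Ocln have EpiLC points above all ESC points in both fractions, Cldn4 overlaps in nascent RNA, and Cldn5 reaches at most 2.26 CPM.

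Cldn6, a claudin of embryonic epithelia, had the highest level per length of the group in EpiLCs. Its levels were 21.7, 19.9 and 17.7 CPM in the ESC total libraries and 254, 234 and 240 CPM in the EpiLC total libraries. In the 4sU libraries it had 12.1, 8.59 and 13.8 CPM in ESCs and 183, 148 and 151 in EpiLCs. All EpiLC libraries lay above all ESC libraries in both fractions. The log2 change was 3.60 ± 0.11 (SE) in total RNA (limma-voom adjusted p = 6.77e-12) and 3.85 ± 0.18 in nascent RNA (limma-voom adjusted p = 1.19e-09).

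Cldn9, the neighbour of Cldn6 on the other strand, is a claudin known from the inner ear, and its reads were few. It had 1.39, 1.46 and 1.18 CPM in ESC and 3.91, 3.51 and 3.98 CPM in EpiLC total libraries. In nascent RNA it had 1.64, 0.895 and 1.36 CPM in ESCs and 5.42, 5.51 and 2.97 CPM in EpiLCs, on 5 to 8 and 10 to 26 reads. The groups did not overlap, and the log2 changes were 1.45 ± 0.24 in total RNA (limma-voom adjusted p = 0.000108) and 1.82 ± 0.37 in nascent RNA (limma-voom adjusted p = 0.000841). Cldn9 passed the filter through its EpiLC libraries alone, so these differences were in part required by the filter. On the other side of Cldn6, 1915 bases away, the receptor gene Tnfrsf12a changed by 2.43 ± 0.16 in total RNA (limma-voom adjusted p = 9.88e-09), while Pkmyt1, 42317 bases beyond Cldn9, changed by -0.60 ± 0.12 and was not called.

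Cldn3 and Cldn4 are epithelial claudins and both are receptors of a Clostridium enterotoxin. Cldn3 had 6.66, 6.64 and 7.08 CPM in ESC total libraries and 27.7, 26.3 and 24.2 CPM in EpiLC total libraries. Its nascent levels were 3.27, 1.97 and 3.80 CPM against 12.3, 10.4 and 11.6 CPM, on 11 to 16 and 39 to 52 reads. The EpiLC libraries were all higher, with log2 changes of 1.94 ± 0.12 in total RNA (limma-voom adjusted p = 4.52e-09) and 1.97 ± 0.26 in nascent RNA (limma-voom adjusted p = 2.4e-05). A gene on the other strand, Wbscr25, overlaps Cldn3 and had at most 9 reads in a library.

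Cldn4 had the highest level per length of the group in ESCs. Its total levels were 172, 149 and 123 CPM in ESCs and 178, 180 and 188 CPM in EpiLCs. The EpiLC libraries were above the ESC libraries, the nearest pair being 178 and 172, and the log2 change of 0.30 ± 0.12 had a limma-voom adjusted p of 0.0417, which was 0.0575 with edgeR's quasi-likelihood test and 0.0907 with DESeq2. Nascent levels were 154, 164 and 117 CPM in ESCs and 150, 129 and 128 in EpiLCs, which overlapped (log2 change -0.10 ± 0.14, limma-voom adjusted p = 0.59). ESC replicate 3 was the lowest ESC library in both fractions, and without both of its libraries the total change was 0.18 (limma-voom adjusted p = 0.0274) and the nascent change was -0.26 (limma-voom adjusted p = 0.0161). Mettl27, 2481 bases from Cldn4, differed between the fractions: its log2 change was 0.84 ± 0.11 in total and -0.62 ± 0.16 in nascent RNA.

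Cldn12, a claudin that lacks the usual PDZ-binding tail, changed little. It had 70.2, 65 and 55.7 CPM in ESC and 110, 99.3 and 93.4 CPM in EpiLC total libraries, which did not overlap. The log2 change was 0.66 ± 0.10 (limma-voom adjusted p = 3.23e-05), under the fold threshold. Nascent levels of 67.1, 77.7 and 71.6 CPM in ESCs and 91.4, 78.6 and 83.7 CPM in EpiLCs were closer (0.23 ± 0.11, limma-voom adjusted p = 0.111). On the far side of a 124817-base gap its neighbour Cdk14 rose by 4.29 ± 0.27 in total RNA (limma-voom adjusted p = 6.5e-09), and Gtpbp10, 22580 bases away on the other side, changed by 0.45 ± 0.14.

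Cldn5, the main claudin of blood vessel endothelium, had 18 to 32 reads in ESC total libraries and 5 to 9 in EpiLC total libraries, or 1.04, 1.61 and 2.26 CPM against 1.00, 0.474 and 0.795 CPM. The ESC levels were above the EpiLC levels, by a margin of 1.04 to 1.00 at the nearest pair. Summed over libraries the ratio of EpiLC to ESC reads per library total was 0.513 (exact 95% counting interval 0.303 to 0.836, which covers counting error only). The 4sU libraries held 2 to 4 and 0 to 4 Cldn5 reads and overlapped, with a ratio of 0.649 (0.171 to 2.16).

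Cldn7, an epithelial claudin found along the sides of cells and a binding partner of Epcam, had 8.05, 7.40 and 7.47 CPM in the ESC total libraries and 102, 88.3 and 98.1 CPM in the EpiLC total libraries. The fitted log2 change in total RNA was 3.64 ± 0.15. In 4sU libraries it had 0.409, 0.895 and 1.90 CPM in ESCs, from 2, 5 and 7 reads, and 81.3, 55.7 and 62.6 CPM in EpiLCs, from 345, 263 and 211 reads. The nascent log2 change was 6.09 ± 0.48, and it was 5.59 without ESC 4sU replicate 1 and 6.57 without ESC 4sU replicate 3. On summed reads the EpiLC to ESC ratio was 13.3 in total RNA and 68.3 in nascent RNA, where the ESC sum was 14 reads. No interval is given for these ratios, because the gap between the fractions chose the gene. The interaction value used in the choice of Cldn7, the total change minus the nascent change, was -2.45 ± 0.51, and -1.95 without ESC 4sU replicate 1. Since this value chose the gene, it is given as a description, with no test and no call. The neighbours of Cldn7 moved little: Elp5 changed by -0.33 ± 0.10 in total RNA and 0.12 ± 0.15 in nascent RNA, and Slc2a4, 16614 bases away, by 0.39 ± 0.21 and 0.26 ± 0.40.

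Ocln encodes occludin, the first membrane protein found in tight junction strands. Its total levels were 28.6, 31.7 and 43.6 CPM in ESCs and 86.4, 76.8 and 78.8 CPM in EpiLCs. Nascent levels were 25.6, 22.7 and 33.1 CPM against 66.4, 61.7 and 65 CPM. ESC replicate 3 was the highest ESC library in both fractions, and the groups did not overlap. The log2 change was 1.26 ± 0.13 in total RNA (limma-voom adjusted p = 7.72e-07) and 1.29 ± 0.18 in nascent RNA (limma-voom adjusted p = 3.05e-05), and without both ESC replicate 3 libraries 1.40 and 1.39. Gtf2h2, 3927 bases from Ocln, changed by -0.18 ± 0.08 in total RNA and was not called, and Marveld2, on its other side, rose with values given among the wider genes.

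Tjp1 encodes ZO-1, the scaffold that binds claudin tails. It had 213, 211 and 258 CPM in ESC total libraries and 413, 372 and 377 CPM in EpiLC total libraries. In nascent RNA it had 203, 175 and 186 CPM in ESCs and 335, 295 and 307 CPM in EpiLCs. Both fractions separated the cell types, with log2 changes of 0.78 ± 0.09 (limma-voom adjusted p = 2.31e-06) and 0.74 ± 0.10 (limma-voom adjusted p = 2.34e-05), both under the fold threshold. The nearest kept gene on one side, Nsmce3, lay 423167 bases away and changed by -0.30 ± 0.11 in total RNA. The uncharacterised gene Gm44794 overlaps Tjp1 on the same strand with at most 24 reads in a library.

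Levels can be compared between genes only per length, here as CPM divided by the kilobases of merged exon (RPKM). In ESC total RNA the order was Cldn4 (81.5 ± 13.5, SD, n = 3), Tjp1 (32.0 ± 3.74), Cldn12 (16.2 ± 1.86), Cldn6 (13.1 ± 1.34), Ocln (8.21 ± 1.88), Cldn3 (5.40 ± 0.195), Cldn7 (5.17 ± 0.243), Cldn5 (1.16 ± 0.431) and Cldn9 (0.936 ± 0.102). The pairs Cldn12 and Cldn6, Cldn3 and Cldn7, and Cldn5 and Cldn9 overlapped between libraries. In EpiLC total RNA it was Cldn6 (161 ± 6.81), Cldn4 (100 ± 2.97), Cldn7 (65 ± 4.71), Tjp1 (54.5 ± 3.14), Cldn12 (25.6 ± 2.13), Cldn3 (20.7 ± 1.41), Ocln (19.1 ± 1.20), Cldn9 (2.65 ± 0.177) and Cldn5 (0.536 ± 0.189), and among neighbours in this order only Cldn3 and Ocln overlapped. The median over the 9 genes was 8.21 RPKM in ESC and 25.6 RPKM in EpiLC total RNA.

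The make-up of claudin RNA therefore differed between the cell types. Over the summed RPKM of all 35 claudin genes of the table, Cldn4 made up 65.1% ± 2.54 (SD, n = 3) in ESC total RNA and 26.5% ± 1.26 in EpiLC total RNA. Cldn6 went from 10.6% ± 0.285 to 42.6% ± 0.440, and Cldn7 from 4.18% ± 0.424 to 17.1% ± 0.702. Cldn12 held 13% ± 0.245 and 6.76% ± 0.442, and Cldn3 4.39% ± 0.726 and 5.46% ± 0.347. The nascent fraction had a like make-up, with Cldn4 at 70.3% ± 5.58 in ESCs and 28.2% ± 0.872 in EpiLCs, and Cldn6 at 6.88% ± 2.20 and 40.3% ± 0.0821. The 28 claudin genes outside the group summed to 1.03% ± 0.483 in ESC and 0.743% ± 0.0469 in EpiLC total RNA. Since shares add up to a whole, a smaller Cldn4 share is not a lower Cldn4 level.

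**Figure D2:**
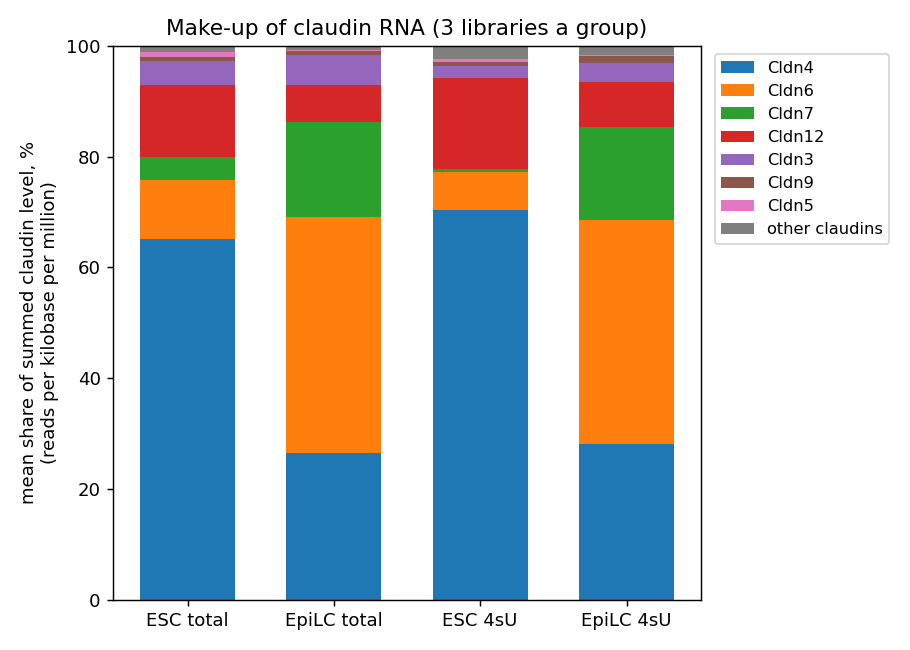
Mean share of each claudin in the summed RPKM of 35 claudin genes (y axis, percent) in the 4 groups (x axis, 3 libraries each), stacked by gene. Cldn4 fills 65.1% of the ESC total bar and 26.5% of the EpiLC total bar, where Cldn6 has 42.6% and Cldn7 17.1%.

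The log2 ratio of total over 4sU RNA, a relative stability on a scale set by each pair of libraries, was compared next, for libraries of the same cell type and number. Each extract was split into the 2 fractions, but the labels do not say that a number marks 1 extract. Of the 7 genes tested, 0 were called in the interaction in either direction, beside 1.24% of all genes called higher in EpiLCs and 0.305% lower. The largest differences were 0.43 ± 0.15 for Cldn12 (limma-voom adjusted p = 0.106) and 0.40 ± 0.19 for Cldn4 (limma-voom adjusted p = 0.214), and the least precise was that of Cldn9, -0.36 ± 0.44. Cldn6 differed by -0.25 ± 0.21 (limma-voom adjusted p = 0.525). The differences of Cldn3 (-0.03 ± 0.29), Ocln (-0.03 ± 0.22) and Tjp1 (0.04 ± 0.13) were smaller than their SE, and their signs turned with the scaling or with the libraries used. The median over all genes was 0.11. Without both ESC replicate 3 libraries the adjusted p was 0.0101 for Cldn4 and 0.0498 for Cldn12, with differences of 0.43 and 0.37 that stayed under the fold threshold.

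Within a cell type Cldn3 had a high ratio, with log2 values of 0.99, 1.70 and 0.86 in ESCs and 1.16, 1.33 and 1.05 in EpiLCs, at mean percentiles of 79.1 ± 9.33 and 79.8 ± 4.02 (SD, n = 3) of the genes kept. Tjp1 lay near the middle with 0.07, 0.27 and 0.47 in ESCs and 0.30, 0.33 and 0.29 in EpiLCs, at percentiles of 56.3 ± 5.06 and 54.9 ± 0.901. Cldn4 moved from a percentile of 49.8 ± 3.91 to 58.4 ± 4.79, and Cldn12 from 44.2 ± 6.12 to 53.2 ± 2.92. Cldn9 was lowest in EpiLCs at 40.0 ± 14.4, on few reads. Cldn6 was at 69.8 ± 11.3 in ESCs and 63.6 ± 3.26 in EpiLCs, and Ocln at 58.2 ± 4.31 and 55.3 ± 1.57. The ESC ratios of Cldn7 were 3.98, 2.92 and 1.89, which spread over more than 2 log2 units as its 4sU counts went from 2 to 7 reads, and its EpiLC ratios were 0.32, 0.66 and 0.65. Its percentile was 97.4 ± 3.70 in ESCs and 61.8 ± 5.81 in EpiLCs, where the ratio was close to that of Cldn6. The median percentile of the 8 genes kept, Cldn7 among them, was 58.4 in ESCs and 57.4 in EpiLCs.

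**Figure D3:**
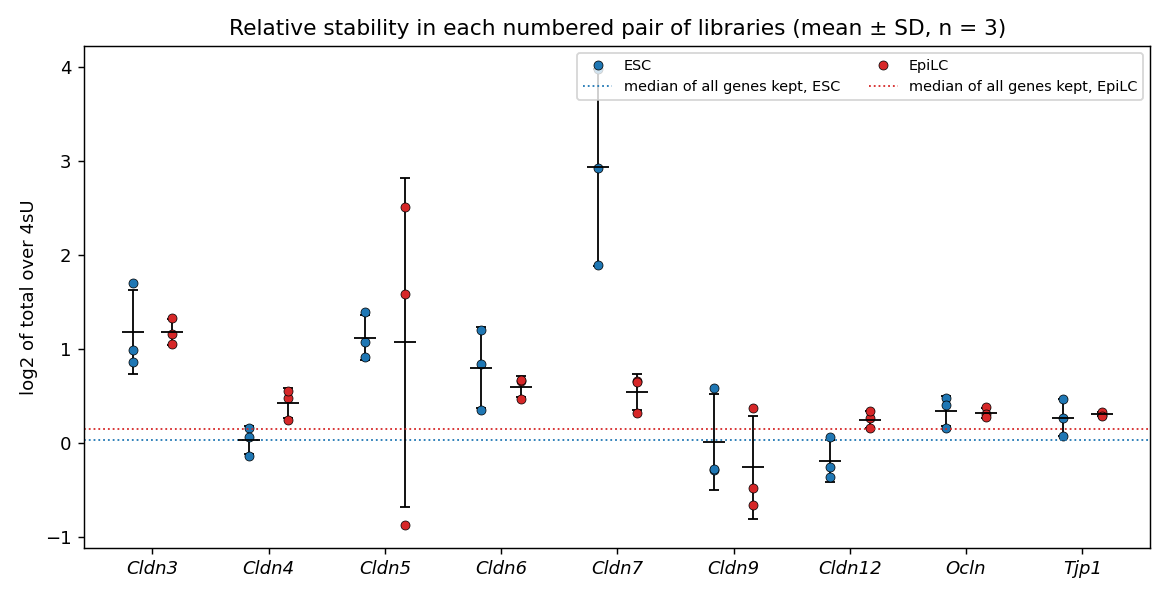
Log2 of total over 4sU CPM (y axis, with an offset of 0.5 reads) for each same-numbered pair of libraries (points), by gene on the x axis, with means ± SD of 3 and dotted lines at the medians of all genes kept. Cldn7 in ESCs spreads from 1.89 to 3.98 and Cldn5 in EpiLCs from -0.87 to 2.51, both on few 4sU reads, while the points of Tjp1 and Ocln lie within 0.5 of 0.

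Around the 9 genes, 90 further genes of junctions, polarity, adhesion and their regulators were listed, of which 57 passed the filter. In total RNA 26 of the 57 were called higher and 5 lower in EpiLCs, in nascent RNA 24 and 6, beside the shares of all genes given above (16.3% and 11.2%, 11.9% and 13.5%). Of those called higher, 8 in each fraction passed the filter through EpiLC libraries alone, so their differences were in part required by the filter. Among them were Cldn1, Marveld3, Ildr2, Amot, Crb2, Pard3b and Zeb2. Likewise Jam2, Grhl3 and Snai2 passed through ESC libraries alone. Without such genes 18 of 46 were higher and 3 lower in total RNA, beside 11.4% and 7.93% of all genes, and 16 and 3 in nascent RNA, beside 7.27% and 9.87%. The median log2 change of the 57 was 0.78 in total and 0.74 in nascent RNA. Among the other 28 claudins, 1 passed the filter, Cldn1, the claudin of the epidermal barrier. It had 1, 0 and 0 reads in ESC total libraries and 118 in the 3 EpiLC total libraries together (ratio of 201, exact 95% counting interval 35.4 to 8000), and 4 against 66 reads in nascent RNA (19.3, 7.18 to 72.8).

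All 5 MARVEL and tricellular junction genes were called in total RNA, 4 higher and 1 lower, and likewise in nascent RNA. The shares of all genes were 16.3% and 11.2% in total RNA and 11.9% and 13.5% in nascent RNA. Marveld3 and Ildr2 passed the filter through EpiLC libraries alone. Without both genes, 2 of 3 were higher and 1 lower in total RNA, beside 11.4% and 7.93% of all genes. Marveld2, which encodes tricellulin, went from 6.09 ± 0.633 to 27.6 ± 2.59 CPM (SD, n = 3; log2 change 2.18 ± 0.16, limma-voom adjusted p = 2.3e-08), and Marveld3 from 1.82 ± 0.312 to 20.2 ± 0.857 CPM (log2 change 3.5). The angulins, which recruit tricellulin to 3-cell corners, differed in direction: Ildr2 (4.36) and Lsr (1.80) rose, and Ildr1 fell from 55.9 ± 7.26 to 8.70 ± 0.150 CPM (-2.66 ± 0.13, limma-voom adjusted p = 5.24e-10). Lsr, and Pard6b, Nectin3 and Grhl1 below, were named after their values were seen, to complete a count.

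Of the 7 JAM family genes, which encode immunoglobulin-like junction proteins, 5 passed the filter. In total RNA 2 were lower and 0 higher, beside 11.2% and 16.3% of all genes. Jam2 passed the filter through ESC libraries alone, so its fall was in part required by the filter. Without Jam2, 1 of 4 was lower, beside 7.93% of all genes. Jam2 had 269, 279 and 289 CPM in ESC total libraries and 1.12, 1.23 and 0.596 CPM in EpiLC total libraries (log2 change -8.14 ± 0.35, limma-voom adjusted p = 1.29e-10), with a nascent change of -8.19 ± 0.40. Jam3 changed by -1.32 ± 0.10 in total RNA and by -1.0 ± 0.22 in nascent RNA, at the fold threshold, and 15 of the 23 alternatives put the nascent value under it. F11r, which encodes JAM-A, was not called (0.46 ± 0.13 and 0.75 ± 0.17).

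Of 14 plaque scaffold genes, 6 were higher and 0 lower in total RNA, beside 16.3% and 11.2% of all genes. Without Amot, which passed the filter through EpiLC libraries alone, 5 of 13 were higher, beside 11.4% of all genes. The largest changes were those of Amot, an angiomotin that binds polarity scaffolds (5.15 ± 0.22), Patj, a multi-PDZ partner of the Crumbs complex (3.71 ± 0.10, from 11.4 ± 1.57 to 147 ± 6.70 CPM) and Magi2 (3.35 ± 0.19). Of 10 polarity genes kept from 13, 4 were higher and 0 lower: Crb2 (3.00 ± 0.29), Pard3b (2.69 ± 0.29), Crb3 (2.48 ± 0.21, from 13.7 ± 5.57 to 76.5 ± 4.22 CPM) and Pard6b (1.04, and 0.95 without ESC total replicate 3, under the threshold). Crb2 and Pard3b passed the filter through EpiLC libraries alone. Without both genes, 2 of 8 were higher, beside 11.4% of all genes.

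Of 11 adhesion partners, 4 were higher and 0 lower in total RNA, beside 16.3% and 11.2% of all genes. Without genes that passed the filter through 1 cell type alone, 3 of 10 were higher, beside 11.4% of all genes. Epcam, which binds Cldn7, had 139, 140 and 101 CPM in ESC and 481, 488 and 485 CPM in EpiLC total libraries (log2 change 1.94 ± 0.11, limma-voom adjusted p = 1.51e-09). Nectin2 and Nectin3 were just past the fold threshold and fell under it without ESC total replicate 3 (0.99 and 0.94), and Nectin3 did so in 9 of the 23 alternatives. Without both ESC replicate 3 libraries Nectin2 (0.98), Nectin3 (0.93) and Pard6b (0.94) were under it. In that fit 23 wider genes were called higher in total RNA. Cdh1, E-cadherin, was abundant in both cell types, at 602 ± 98.9 and 1021 ± 64.2 CPM, and changed by 0.78 ± 0.10 in total RNA and by 1.04 ± 0.11 in nascent RNA, the latter called, but 0.94 without ESC 4sU replicate 1.

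Of 12 regulators of epithelial genes, 11 passed the filter, and 7 were higher and 2 lower in total RNA. The shares of all genes were 16.3% and 11.2%. Without genes that passed the filter through 1 cell type alone, 6 of 8 were higher and 1 lower, beside 11.4% and 7.93%. Grhl2, a Grainyhead factor known to bind claudin and Cdh1 genes, had 13, 8.31 and 10.3 CPM in ESC and 64.4, 61.2 and 71.8 CPM in EpiLC total libraries (2.67 ± 0.14, limma-voom adjusted p = 9.96e-10), and Esrp1, an epithelial splicing factor, went from 4.44 ± 1.25 to 149 ± 4.83 CPM (5.02 ± 0.15). Grhl3 was lower (-3.36 ± 0.24), as was Zeb1, an E-box repressor of epithelial genes, which went from 33.9 ± 5.16 to 3.20 ± 1.17 CPM (-3.40 ± 0.24). Other factors known as repressors of epithelial genes, named after their values were seen, differed in direction. Zeb2 rose from 0.723 ± 0.189 to 2.83 ± 0.457 CPM in total RNA (1.95 ± 0.33), and Twist1 rose by 2.05 ± 0.20. Snai2 was called lower in nascent RNA (-2.83 ± 0.49, limma-voom adjusted p = 0.000248, Zeb1 -2.76 ± 0.22). Snai2 passed the filter through ESC libraries alone, so this fall was in part required by the filter. Snai1 changed in nascent RNA by -0.82 ± 0.31 (limma-voom adjusted p = 0.0372), under the fold threshold. In total RNA, on at most 22 reads a library, neither Snai1 nor Snai2 was called. In the interaction 2 of the 57 genes were called higher in EpiLCs and 0 lower, beside 1.24% and 0.305% of all genes. Magi2 differed by 1.03 ± 0.25 (limma-voom adjusted p = 0.0324), a call that was lost in 10 of the 12 fits without 1 library, with values of 0.86 to 1.15. Grhl1 differed by 2.09 ± 0.31 (limma-voom adjusted p = 0.00311). Its total level was higher in EpiLCs (1.35 ± 0.21). Its nascent level was lower (-0.74 ± 0.22, limma-voom adjusted p = 0.0112), under the fold threshold.

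**Figure D4:**
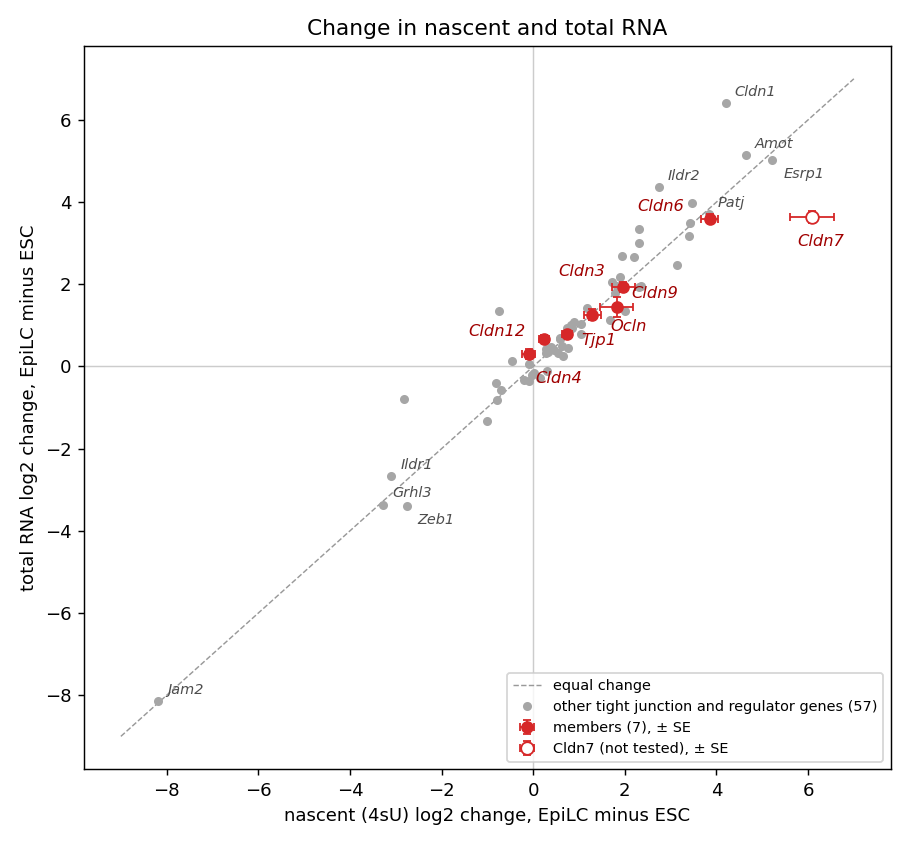
Log2 change from ESC to EpiLC in nascent RNA (x axis) and total RNA (y axis) for the 7 genes tested (filled red, ± SE), Cldn7 (open red, ± SE) and the 57 wider genes kept (grey), with a dashed line of equal change. The 7 filled points lie near the line, and Cldn7, at 6.09 and 3.64, lies to its right.

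The genes most like 3 of the members over the 12 libraries were found by Pearson's r of log2 CPM, given as a description, since libraries share cell types and fractions. For Cldn6 they were Zcrb1 (r = 0.995), Pde5a (0.995) and Pdlim3 (0.994). For Cldn7 they were Efemp1 (0.987), Map7d1 (0.984) and Emc8 (0.984), and for Tjp1 Tdrd7 (0.992), Prnp (0.99) and Ptpn13 (0.989). None of these 9 genes was on the list of junction genes. Efemp1 was low in ESC 4sU libraries, at 0.818 CPM against 13.5 CPM in EpiLCs, as Cldn7 was.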

How the data were processed

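Nascent (4sU) and total RNA were sequenced as single-end reads of 50 bases from ESCs and EpiLCs, 3 libraries a group, assigned to groups by their titles. The deposited values are unnormalised counts of reads for each gene. The authors obtained them by trimming with cutadapt 1.14, aligning to mm10 with STAR 2.5.3a, keeping unique alignments, and counting reads by strand over the exons of GENCODE M14 genes with featureCounts 1.5.3. Unique alignment drops reads shared with close paralogs. The deposited gene lengths are bases of merged exons. Spike-in entries had 0 reads, so no absolute scale exists.

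A gene was kept if 3 or more libraries reached 3 CPM. TMM factors (edgeR 4.0.16) and limma-voom (limma 3.58.1, R 4.3.3) with 4 group means gave the total, nascent and interaction contrasts, with Benjamini-Hochberg adjustment over all 14731 genes. Steps were tested on simulated data. Symbols and UTRs came from GENCODE M21, upstream and microRNA sequences from RefSeq (GRCm38.p6). Counting intervals are exact binomial (Clopper-Pearson, scipy 1.17.1). Alternatives were other scalings and filters, edgeR's quasi-likelihood test, DESeq2 1.42.0, quality weights, the adjusted p alone, a replicate block, and libraries left out. The members and lists were chosen with earlier results of these data known. The named genes were the 9 members, up to 3 called genes of each wider list with the largest change and no overlap in total RNA, 6 set partners, the 3 most alike genes of Cldn6, Cldn7 and Tjp1, and the nearest kept neighbours. Some genes that this rule names are not reported here.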

Additional observations from a re-analysis of the deposited data

Results flagged for a closer look

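For 3 named genes the change from ESC to EpiLC differed between total and nascent RNA by the interaction test over all genes. Grhl1 differed by 2.09 on the log2 scale, with total RNA higher and nascent RNA lower, the latter under the fold threshold. Mettl27, the neighbour of Cldn4, differed by 1.45 ± 0.19 (limma-voom adjusted p = 0.00159), with values of 1.26 to 1.59 in the fits without 1 library. Magi2 differed by 1.03, a call that most fits without 1 library did not keep. Cldn7, which was not tested, is listed for its value of -2.45, which is how it was chosen and is no finding. Its ESC 4sU counts of 2 to 7 reads move with this value, and their part in it was not tested. Groups of 3 libraries are too small to call a single library an outlier. Fits without 1 library are given below, and the one without ESC total replicate 3 gave the most interaction calls over all genes.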

How the results depend on the processing

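The counts of members called, 4 higher and 0 lower in total RNA, 4 higher and 0 lower in nascent RNA and 0 in the interaction, were the same in every alternative run, except 7 higher in total and 5 in nascent RNA at the adjusted p alone, and 3 in each without genes that pass the filter in 1 cell type. The adjusted p alone also gave 40 higher and 11 lower wider genes in total RNA and 38 and 11 in nascent RNA. In the interaction it gave 2 lower wider genes. Over all genes it gave 4624 higher and 4729 lower in total RNA and 3485 and 4246 in nascent RNA. Its interaction calls over all genes were 401 higher and 277 lower. With no expression filter there were 9 lower wider genes in total RNA, and over all genes 4241 higher and 2866 lower in total RNA, 2848 higher in nascent RNA, and 97 higher and 82 lower in the interaction. Without genes that pass the filter in 1 cell type, an alternative chosen after seeing the data, 3 wider genes were lower in total and 3 in nascent RNA, and over all genes 1435 were higher and 994 lower in total RNA and 912 and 1238 in nascent RNA. Of the 2 wider genes called higher in the interaction, 1 was left with median-of-ratios scaling, TMM within each assay, no filter, edgeR or DESeq2, and 1 to 2 when 1 library was left out, where 0 to 1 were lower. Interaction calls over all genes, 182 higher and 45 lower, were 738 and 108 with quality weights, 438 and 90 with the replicate block, 680 and 99 without both ESC replicate 3 libraries, 28 lower with library totals and 81 lower with DESeq2. Leaving out 1 library gave 39 to 572 higher and 21 to 86 lower calls. The lowest values came from dropping EpiLC 4sU replicate 1 and EpiLC total replicate 2, and both highest from dropping ESC total replicate 3. Among protein-coding genes alone the median percentile of the members kept was 52.0 in ESCs and 51.0 in EpiLCs. The sign of small interaction values turned for Cldn3 (0.03 with library totals, 0.01 with the replicate block, and -0.28 to 0.21 without 1 library), Ocln (0.04 with library totals, 0.01 with quality weights, 0.01 without both ESC replicate 3 libraries, and -0.24 to 0.12 without 1 library) and Tjp1 (-0.04 with median-of-ratios scaling, -0.01 with TMM within each assay, -0.05 with no filter, -0.05 with DESeq2, and -0.08 to 0.13 without 1 library). The nascent change of Cldn4 ran from -0.17 to 0.05 without 1 library, and that of Slc2a4 was -0.03 without both ESC replicate 3 libraries. The causes were not tested. The replicate numbers are shared between groups. Deviations of same-numbered 4sU and total libraries correlated at 0.163 to 0.408 in ESCs and 0.023 to 0.075 in EpiLCs. Those of same-numbered ESC and EpiLC libraries correlated at -0.078 to -0.009. The labels do not say that a number marks 1 extract. The main tests did not take the numbers as pairs, while the ratios of total over 4sU did, as a description. The replicate block changed no call of a member. The limma-voom adjusted p of the interaction was then 0.0445 for Cldn4 and 0.0463 for Cldn12, with differences under the fold threshold. The 4sU counts limit Cldn5, Cldn7 and Cldn9.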
